A study of Mus musculus with 8 samples.

Results

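The type I hair shaft keratins Krt31, Krt32, Krt33a, Krt33b, Krt34, Krt35 and Krt36 were followed by symbol through 3 tables of FPKM (read fragments scaled to transcript length and sequencing depth), and all 7 were listed in every table, among 20026 symbols that the tables share. RNA had been sequenced from mouse hair follicle cells of mixed strain with and without deletion of Bmpr1a, which encodes a receptor of bone morphogenetic protein (BMP) signals. Bulge stem cells (HFSCs) on postnatal day 68 gave 1 cKO library (K15-CrePGR;Bmpr1a fl/fl) and 1 Het library of the same Cre line. Transit-amplifying cells (TACs), the dividing progeny at the base of the follicle, gave 1 cKO (Shh-CreER;Bmpr1a fl/fl) and 1 Het library of the Shh-CreER line, also on day 68. On day 80, K15-CrePGR hair bulbs gave TAC libraries KO 64 and KO 84 and the control libraries WT 52 and WT 57. The Krt15 promoter drives the Cre of the K15 line in bulge stem cells, whose progeny the K15-CrePGR TACs are by the series' design, while Shh-CreER acts in Shh-expressing cells of the bulb. The controls of the first 2 comparisons are labelled Het and those of the third WT, and the labels state neither how the Cre was induced, nor whether WT libraries carry it, nor whether animals were pooled.

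Hair keratins are the intermediate filament proteins of the hair fibre. A type I (acidic) chain pairs with a type II (basic) chain, and cross-links through sulphur-rich keratin-associated proteins make the filaments of the shaft hard. Their genes are switched on in sequence as matrix cells leave division and enter the shaft, and BMP signalling is known to be needed for that step. In human follicles KRT35 is among the first to appear, in the matrix, precortex and cuticle, with KRT85 as its type II partner. KRT31, KRT33A, KRT33B, KRT34 and KRT36 follow in the cortex, and KRT32 belongs to the cuticle.

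The 7 genes lie together on mouse chromosome 11, all on the minus strand. In the mm9 coordinates of the K15-CrePGR TAC table they run from Krt33a (chromosome 11, 99872508 to 99877526) through Krt33b (99884947 to 99891182), Krt34 (99898660 to 99902868) and Krt31 (99907959 to 99911865) to Krt32 and Krt35, which are listed with 1 common span (99913599 to 99957566), and Krt36 (99963320 to 99966940). The RefSeq promoter table (GRCm38.p6) held 5 of the 7, and the 250 bases before the start of each are shown because most members were lower together in deleted TACs. Capitals mark matches on either strand to TATAAA and to TTTAT, whose reverse complement lies within TATAAA. They also mark matches to AGTCCTG. The windows are chr11:100029869-100030118, chr11:100041555-100041804, chr11:100050552-100050801, chr11:100088270-100088519 and chr11:100105627-100105876, written 5′ to 3′ on the minus strand.
Krt33b: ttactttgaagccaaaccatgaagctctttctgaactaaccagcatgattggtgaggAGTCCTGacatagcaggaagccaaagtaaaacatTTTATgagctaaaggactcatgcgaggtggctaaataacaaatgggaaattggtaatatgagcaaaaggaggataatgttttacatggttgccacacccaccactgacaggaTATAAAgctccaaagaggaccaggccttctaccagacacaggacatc
Krt34: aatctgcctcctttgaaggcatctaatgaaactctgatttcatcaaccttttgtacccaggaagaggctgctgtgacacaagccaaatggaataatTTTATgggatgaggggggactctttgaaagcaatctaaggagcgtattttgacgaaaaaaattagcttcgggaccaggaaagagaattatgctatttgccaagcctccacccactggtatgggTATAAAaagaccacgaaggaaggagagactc
Krt31: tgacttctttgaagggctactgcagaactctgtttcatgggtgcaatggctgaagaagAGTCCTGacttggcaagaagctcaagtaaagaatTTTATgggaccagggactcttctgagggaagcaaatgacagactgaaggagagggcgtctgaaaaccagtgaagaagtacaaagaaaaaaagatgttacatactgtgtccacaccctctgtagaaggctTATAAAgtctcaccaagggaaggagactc
Krt32: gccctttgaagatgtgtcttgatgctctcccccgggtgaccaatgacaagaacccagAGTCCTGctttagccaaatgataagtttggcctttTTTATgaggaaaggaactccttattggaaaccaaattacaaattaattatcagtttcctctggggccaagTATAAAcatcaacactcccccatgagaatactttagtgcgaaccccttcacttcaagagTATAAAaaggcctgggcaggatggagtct
Krt36: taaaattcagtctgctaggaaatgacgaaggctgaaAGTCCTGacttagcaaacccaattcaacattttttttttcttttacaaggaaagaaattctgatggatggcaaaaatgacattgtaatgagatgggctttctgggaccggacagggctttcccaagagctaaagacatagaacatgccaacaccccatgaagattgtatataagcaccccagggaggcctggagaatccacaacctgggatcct

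In the full window of 250 bases before and 50 after the start, TTTAT occurred on either strand in 4 of the 5 promoters and in 40.0% of all 32851 promoters of the table. TATAAA, the TATA box, occurred in 4 of 5 and in 13.6% of all. CTTTG, the core bound by Lef1, occurred in 4 of 5 and in 53.9% of all, and GGCGCC, a GC-rich element known from BMP target genes, in 0 of 5 and in 11.9% of all. AGTCCTG, picked after the sequences were seen, occurred in 4 of 5 and in 5.78% of all. On the coding strand TTTAT began at position -159 from the start in Krt33b, at -158 in Krt31 and Krt32 and at -154 in Krt34, each time followed by G. That longer form, TTTATG, started between -159 and -154 in 0.14% of all promoters, a window chosen after the matches were seen. AGTCCTG began at -193 in Krt33b and Krt32, at -192 in Krt31 and at -214 in Krt36. These matches describe letters and not bound sites.

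**Figure D1:**
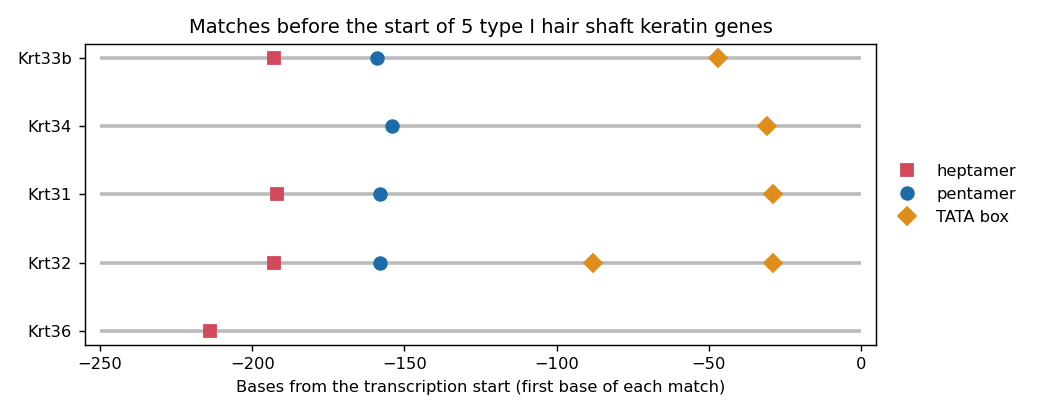
Position of each match along the 250 bases before the transcription start, with bases from the start on the x axis and 1 line per gene; squares are the heptamer AGTCCTG, circles the pentamer TTTAT on the coding strand and diamonds the TATA box. In Krt33b, Krt31 and Krt32 the heptamer lies at -192 or -193 and the pentamer at -158 or -159.

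Some members resemble each other enough to share reads. Of the 50-base stretches of the Krt34 transcript, 33.1% also occurred in a transcript of another gene, as did 28.1% for Krt31, 24.2% for Krt33b and 21.9% for Krt33a. The share was 3.95% for Krt35, 0.43% for Krt36 and 0 of 1615 stretches for Krt32. The other genes were members in every case, and Krt31 and Krt33b had 89.0% identical bases over 1482 aligned ones. The sources used here do not say how such reads were split in counting, so the levels of Krt31, Krt33a, Krt33b and Krt34 relative to each other are uncertain.

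Depth was not stated. Low FPKM fall in steps of 1 read, and with GENCODE vM21 transcript lengths these steps gave about 46900000 reads for the HFSC cKO library and 55000000 reads for its Het control, 28400000 reads for the Shh-CreER cKO library and 28500000 reads for its Het control, and for the K15-CrePGR TAC libraries a lowest value of 23600000 reads and a highest of 29600000 reads. The estimate for KO 64 is the least firm, since 33 of its 246 low values lay below the step. Summed FPKM of named genes lay between 474079 and 996545. Bmpr1a itself stood between 31.8 and 46.0 FPKM in all 8 libraries, and a level for the whole gene does not check the excision. Xist, expressed from the inactive X chromosome, stood at 3.98 FPKM in cKO and 68.9 FPKM in Het HFSCs, and at 3.26 FPKM in WT 52 against 175 to 226 FPKM in the other K15-CrePGR TAC libraries, so that sex differed between libraries. In Shh-CreER TACs Xist stood at 102 FPKM in cKO and 68.2 FPKM in Het. Ddx3y, a gene of the Y chromosome, stood at 14.8 FPKM in that cKO library and 10.0007 FPKM in that Het library. Its level was 26.4 FPKM in WT 52 and 0.0812 FPKM in WT 57. Each Shh-CreER library thus held RNA of both sexes, and so of more than 1 animal. The part of sex in the results was not tested. In bulk samples, fewer cells of a type and less RNA per cell cannot be told apart.

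In TACs the members were lower after either deletion, with Krt34 in K15-CrePGR bulbs as the exception. All 7 were lower in the Shh-CreER cKO library than in its Het control, 6 of them at least 2-fold on the log2(FPKM + 1) scale (median log2 difference -2.59), against 2.77% of 12296 genes at least 2-fold lower there, 2.67% at least 2-fold higher and a median over all genes of 0.01. In K15-CrePGR TACs, 6 of 7 lay below both WT libraries in both KO libraries (median log2 difference -2.09), against 27.5% of 13565 loci below, 26.8% above and a median over all loci of -0.03. None of the 7 passed an adjusted p of 0.05 with limma (adjusted over all loci by Benjamini-Hochberg), a threshold that 0.0663% of loci passed. At an unadjusted p under 0.05, 6 of 7 were lower, against 7.08% of loci lower and 10.3% higher, and without WT 52 or without WT 57 the count was 3 of 7. In HFSCs, where their levels were at most 7.41 FPKM, 6 members were higher in the cKO library and Krt32 was lower.

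**Figure D2:**
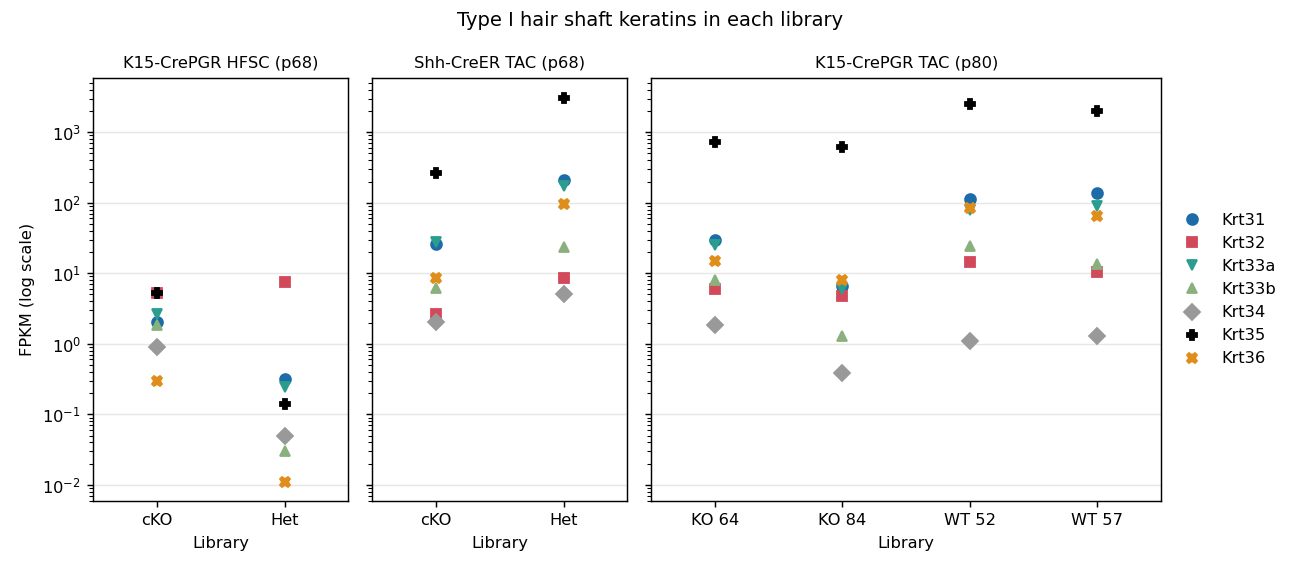
FPKM on a log scale of each of the 7 keratins (symbols) in each of the 8 libraries, with deleted libraries left of their controls; each symbol is 1 library and the tables were normalized separately. Krt35 is uppermost in all 6 TAC libraries and Krt32 in both HFSC libraries.

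Krt35, the early matrix and precortex keratin, held most of the family's transcripts in TACs. It stood at 268 FPKM in the Shh-CreER cKO library, against 3092 FPKM in the Het library. That put cKO at 0.0867 times the Het level (log2 difference -3.52). In the Het library Krt35 ranked number 8 among all named genes by FPKM, and in cKO number 193. The K15-CrePGR TACs had 733 FPKM in KO 64 and 624 FPKM in KO 84, against 2519 FPKM in WT 52 and 2028 FPKM in WT 57. The KO libraries lay close together and both below the WT libraries (log2 difference -1.74 ± 0.24, SE; limma adjusted p = 0.109, lower in 2 of 2 KO libraries). Its share of the summed FPKM of the 7 genes was 78.6% in Shh-CreER cKO and 85.7% in Het TACs, and 89.5% in KO 64 and 95.8% in KO 84, against 88.9% in WT 52 and 86.4% in WT 57.

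Krt31, whose human counterpart is a cortex keratin, was second to Krt35 in the control TACs. It stood at 25.9 FPKM in Shh-CreER cKO TACs, against 213 FPKM in Het TACs (log2 difference -2.99). K15-CrePGR bulbs had 29.3 FPKM in KO 64 and 6.53 FPKM in KO 84, against 112 FPKM in WT 52 and 138 FPKM in WT 57. Both KO libraries lay below both WT libraries but differed 4.49-fold from each other (log2 difference -3.05 ± 0.70, SE; limma adjusted p = 0.175, lower in 2 of 2 KO libraries).

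Krt33a, from the same cluster and a cortex keratin in human hair, had levels close to those of Krt31. Its level was 27.6 FPKM in Shh-CreER cKO TACs, against 171 FPKM in Het TACs (log2 difference -2.59). Its level in K15-CrePGR TACs was 25.6 FPKM in KO 64 and 6.07 FPKM in KO 84, against 78.2 FPKM in WT 52 and 90.8 FPKM in WT 57. The groups did not overlap, and KO 64 was again 4.21 times KO 84 (log2 difference -2.64 ± 0.66, SE; limma adjusted p = 0.198). Krt33b, also a cortex keratin in human hair, was 6.12 FPKM in Shh-CreER cKO TACs, against 24.0 FPKM in Het TACs (log2 difference -1.81). Krt33b levels in K15-CrePGR TACs were 8.001 FPKM in KO 64 and 1.28 FPKM in KO 84, against 24.3 FPKM in WT 52 and 13.7 FPKM in WT 57. The groups did not overlap, with a 6.23-fold gap between the KO libraries and a 1.78-fold gap between the WT libraries (log2 difference -2.09 ± 0.74, SE; limma adjusted p = 0.273).

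Krt34 was the lowest of the family in every TAC library. It stood at 2.05 FPKM in Shh-CreER cKO TACs, against 5.07 FPKM in Het TACs, just short of 2-fold on the FPKM + 1 scale (log2 difference -0.99). In K15-CrePGR TACs it stood at 1.84 FPKM in KO 64 and 0.383 FPKM in KO 84, against 1.08 FPKM in WT 52 and 1.30 FPKM in WT 57. KO 64 was above and KO 84 below both WT libraries (log2 difference -0.14, 95% interval -1.38 to 1.09; limma adjusted p = 0.893), and without KO 84 the sign turned (0.38).

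Krt36, a cortex keratin at the edge of the cluster, stood at 8.65 FPKM in Shh-CreER cKO TACs, against 95.5 FPKM in Het TACs (log2 difference -3.32). Krt36 levels in K15-CrePGR TACs were 15.05 FPKM in KO 64 and 7.995 FPKM in KO 84, against 84.1 FPKM in WT 52 and 64.1 FPKM in WT 57. Both KO libraries lay below both WT libraries, the lower of which was 4.26 times KO 64 and 8.02 times KO 84 (log2 difference -2.63 ± 0.34, SE; limma adjusted p = 0.096). Krt32, the cuticle keratin, had a smaller difference. Its level was 2.62 FPKM in Shh-CreER cKO TACs, against 8.61 FPKM in Het TACs (log2 difference -1.41). Krt32 levels in K15-CrePGR TACs were 6.06 FPKM in KO 64 and 4.74 FPKM in KO 84, against 14.3 FPKM in WT 52 and 10.6 FPKM in WT 57, without overlap (log2 difference -1.06 ± 0.22, SE; limma adjusted p = 0.158).

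**Figure D3:**
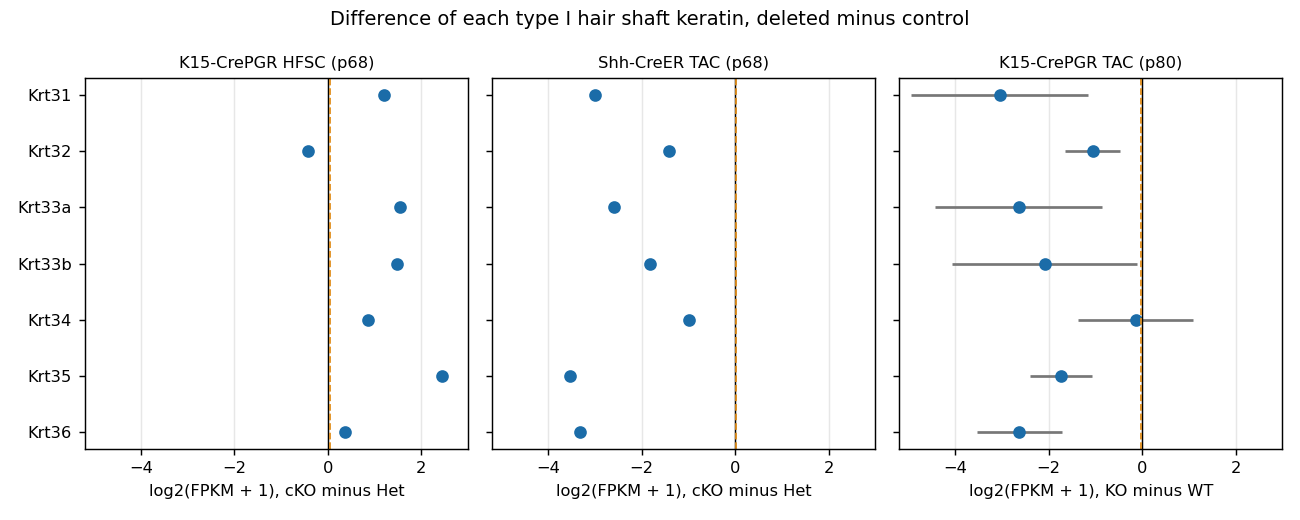
Difference in log2(FPKM + 1) of each keratin, deleted minus control, in the 3 comparisons; points are differences, grey bars are limma 95% intervals (K15-CrePGR TACs, n = 2 and 2), and the dashed line is the median over all genes kept in that table. All 7 points lie left of 0 in Shh-CreER TACs, and in HFSCs 6 lie right of 0 and Krt32 (-0.43) left of it.

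The order of levels was Krt35, Krt31, Krt33a, Krt36, Krt33b, Krt32 and Krt34 in Shh-CreER Het TACs. In the WT libraries of the K15-CrePGR table, Krt33a and Krt36 overlapped in level, as did Krt33b and Krt32, while Krt35, Krt31 and Krt34 stood apart from their neighbours. In the KO libraries Krt35 stood apart at the top, the ranges of Krt31, Krt33a, Krt36 and Krt33b overlapped, and Krt32 lay within the range of Krt33b and below those of Krt31, Krt33a and Krt36. In KO 84, Krt36 was second to Krt35, ahead of Krt31 and Krt33a.

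The 2 KO libraries of K15-CrePGR bulbs lay close together for part of the family and apart for the rest. Krt35 was 1.18-fold, Krt32 1.28-fold and Krt36 1.88-fold higher in KO 64 than in KO 84. Krt31, Krt33a, Krt33b and Krt34, the 4 neighbouring genes with shared stretches, were 4.21-fold to 6.23-fold higher in KO 64, and their sum was 64.7 FPKM in KO 64 and 14.3 FPKM in KO 84, against 216 and 243 FPKM in WT 52 and WT 57. On FPKM + 1, the gap between KO 64 and KO 84 was 4.02-fold for Krt31, 3.94-fold for Krt33b, 3.76-fold for Krt33a and 2.05-fold for Krt34. On that scale 3.18% of the 13565 loci differed at least 4-fold between KO 64 and KO 84, as Krt31 alone of the members did, and 10.4% at least 2-fold. Markers of other cells also differed between the KO libraries. The 4 fibroblast genes summed to between 150 and 871 FPKM in KO, against 38.6 to 109 FPKM in WT, and the 4 immune genes to between 126 and 739 FPKM, against 20.7 to 89.3 FPKM, with Cd207 at 0 in at least 1 library. Summed levels of both marker lists were higher in either KO library than in either WT library. Their part in the result was not tested.

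Relative to Krt35, Krt31 was higher in deleted TACs of the Shh-CreER line and lower in those of the K15-CrePGR line. In Shh-CreER cKO TACs, Krt31 stood at 9.65% of Krt35, against 6.88% in Het, Krt33a at 10.3% against 5.53%, Krt33b at 2.28% against 0.775%, Krt34 at 0.765% against 0.164% and Krt32 at 0.976% against 0.278%. Krt36 was nearly level, at 3.23% against 3.09%. In K15-CrePGR TACs, Krt31 stood at 3.999% of Krt35 in KO 64 and 1.048% in KO 84, against 4.46% in WT 52 and 6.78% in WT 57. Krt36 stood at 2.05% and 1.28% in the KO libraries, against 3.34% and 3.16% in the WT libraries, and Krt32 at 0.827% and 0.76%, against 0.567% and 0.521%. Krt33a, Krt33b and Krt34 relative to Krt35 overlapped between KO and WT. For Krt31, Krt36 and Krt32 the groups did not overlap, and an exact two-sided permutation test of 2 against 2 gave p = 0.333 for each, the smallest it can give. The same p was found for the summed FPKM of the 7 genes (819 FPKM in KO 64 and 651 FPKM in KO 84, against 2833 in WT 52 and 2346 in WT 57). The 6 such ratios make 1 family of tests, and an adjusted p can only be equal or larger.

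**Figure D4:**
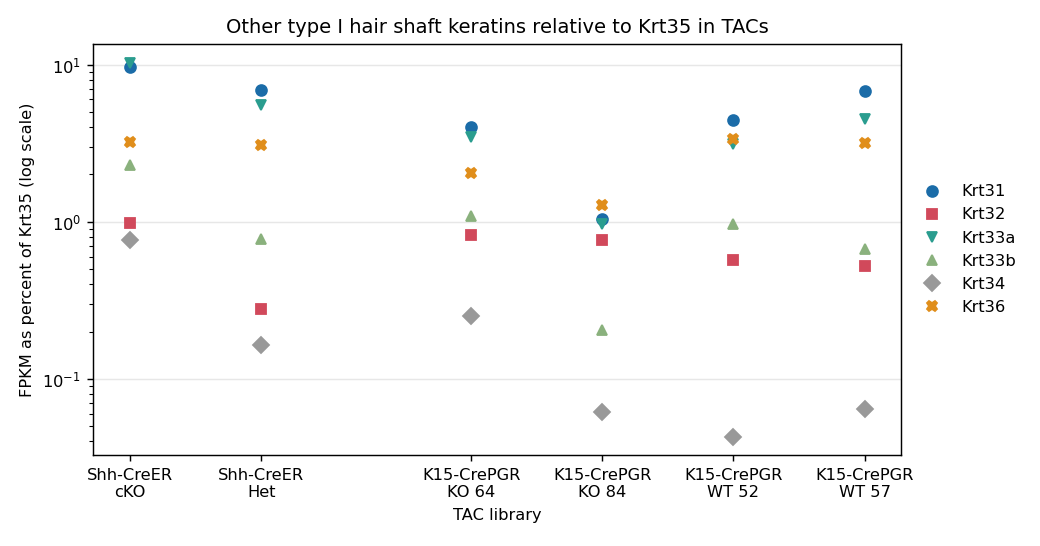
FPKM of 6 keratins as a percent of Krt35 in the same library (log scale), in the 6 TAC libraries with deleted libraries left of their controls; each symbol is 1 library. Krt31 stands at 1.048% in KO 84 and between 3.999% and 9.65% in the other TAC libraries, and Krt32 is higher relative to Krt35 in each deleted library than in its controls.

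In HFSCs the Het library held at most 0.314 FPKM of each member other than Krt32. Of the 7 genes, 4 passed a mean of 1 FPKM, and Krt31, Krt33a and Krt35 passed it only through the cKO library; those 3 were at least 2-fold higher there, beside 5.92% of 12205 genes, from which nothing is read. Krt35 stood at 5.18 FPKM in cKO (about 419 reads), against 0.141 FPKM in Het (about 13.4 reads). Krt33a stood at 2.62 FPKM (about 207 reads) in cKO, against 0.245 FPKM (about 22.7 reads) in Het, and Krt31 at 2.04 FPKM (about 151 reads), against 0.314 FPKM (about 27.3 reads). These are differences between 1 library and 1 library.

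The members below the filter went the same way. Krt33b stood at 1.85 FPKM in cKO HFSCs (about 137 reads), against 0.0301 FPKM in Het HFSCs (about 2.62 reads). Krt34 stood at 0.911 FPKM (about 68.7 reads), against 0.0497 FPKM (about 4.39 reads), and Krt36 at 0.30 FPKM (about 23.5 reads), against 0.0111 FPKM (about 1.02 reads). All 6 genes other than Krt32 were higher in cKO. Krt32 was the exception, at 5.26 FPKM in cKO (about 410.1 reads), against 7.41 FPKM in Het (about 679 reads; log2 difference -0.43). It made up 29.0% of the family's summed FPKM in cKO and 90.4% in Het, while Krt35 made up 28.5% in cKO and 1.72% in Het.

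Markers of other cells differed between the HFSC libraries as well. Over all 12205 genes, 5.92% were at least 2-fold higher in cKO and 4.6% at least 2-fold lower. All 6 genes of dividing cells were at least 2-fold higher in cKO (summed 152 FPKM, against 38.3 FPKM in Het). Inner root sheath genes summed to 81.2 FPKM in cKO and 61.8 FPKM in Het, with 4 of the 7 genes that passed the filter at least 2-fold higher, while 3 of the 7 passed only through cKO. Bulge markers summed to 3793 FPKM in cKO and 8861 FPKM in Het, with all 9 detected. Most of both sums was Krt15, at 3075 FPKM in cKO and 7834 FPKM in Het. Of the 9 bulge genes, 2 were at least 2-fold higher in cKO and 2 at least 2-fold lower (median log2 difference 0.12). Melanocyte markers summed to 43.4 FPKM in cKO and 31.2 FPKM in Het, with 4 of the 5 that passed at least 2-fold higher, 2 of the 5 passing only through cKO. The fifth, Mitf, was at least 2-fold lower, at 6.06 FPKM in cKO and 26.2 FPKM in Het, and made up most of the Het sum. Sebaceous gland markers summed to 154 FPKM in cKO and 492 FPKM in Het (6 of 7 at least 2-fold lower), epidermal markers to 2870.3 FPKM in cKO and 6972 FPKM in Het (3 of 4) and immune markers to 97.5 FPKM in cKO and 231 FPKM in Het (3 of 3). The part of these differences in the keratin values was not tested.

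Type II hair keratins, the partners of the family, were lower in deleted TACs as well. In Shh-CreER TACs all 6 listed members were at least 2-fold lower in cKO (median log2 difference -2.73), against 2.77% of all genes. Krt85 stood at 138 FPKM in cKO and 1533 FPKM in Het. Krt83, as listed in the tables, stood at 18.4 FPKM in cKO and 152 FPKM in Het, and Krt86 at 6.16 FPKM in cKO and 51.0 FPKM in Het. The ratio of Krt35 to Krt85, early partners in the precortex, was 1.94 in cKO and 2.02 in Het, and that of Krt31 to Krt86 was 4.196 in cKO and 4.18 in Het. The ratio of the cuticle keratins Krt32 and Krt82 was 3.11 in cKO and 1.93 in Het, and in K15-CrePGR TACs it was 1.047 in KO 64 and 2.35 in KO 84, against 1.02 in WT 52 and 0.862 in WT 57.

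In K15-CrePGR TACs, 4 of the 5 listed type II genes lay below WT in both KO libraries and Krt84, which passed the filter only through the KO libraries, above, with 0 passing the adjusted threshold in limma and 3 lower at an unadjusted p under 0.05. Over all loci 27.5% lay below, 26.8% above and 7.08% were lower at that p. These 5 do not include Krt85, the partner of Krt35, which had no entry under its symbol there. Krt86 stood at 9.54 FPKM in KO 64 and 7.42 FPKM in KO 84, against 26.8 FPKM in WT 52 and 23.1 FPKM in WT 57 (log2 difference -1.46, limma adjusted p = 0.0955). Krt83 stood at 15.1 FPKM in KO 64 and 3.41 FPKM in KO 84, against 54.8 FPKM in WT 52 and 36.1 FPKM in WT 57 (log2 difference -2.43, limma adjusted p = 0.216). Krt31 was 3.07 times Krt86 in KO 64 and 0.88 times in KO 84, against 4.19 times in WT 52 and 5.96 times in WT 57. The 6 type I members other than Krt35 had 2.25 and 1.35 times the summed FPKM of Krt81, Krt82, Krt83, Krt84 and Krt86 in KO 64 and KO 84, against 2.995 and 3.26 times in WT 52 and WT 57. The KO ratios lay below the WT ratios (exact two-sided permutation p = 0.333, the smallest possible). In HFSCs 2 of 6 listed type II genes passed the filter, both only through cKO, among them Krt85 at 5.07 FPKM in cKO and 0.0242 FPKM in Het.

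The other type I keratins went both ways. Of 20 such genes, 13 passed the filter in Shh-CreER TACs. Of these, 2 (Krt19 and Krt26) were at least 2-fold lower in cKO and 0 higher (median log2 difference 0.11). Over all genes 2.77% were at least 2-fold lower and 2.67% higher. Krt15, a basal and bulge keratin, stood at 141 FPKM in cKO and 86.4 FPKM in Het, and Krt28 of the inner root sheath at 254 FPKM in cKO and 421 FPKM in Het. In K15-CrePGR TACs 12 passed, with 7 above both WT libraries in both KO libraries, 4 below (median log2 difference 1.47) and 0 past the adjusted threshold in limma (6 higher and 3 lower at an unadjusted p under 0.05). Over all loci 26.8% lay above, 27.5% below, and 10.3% were higher and 7.08% lower at that p. Krt18, which counts among the 7 above, passed the filter only through the KO libraries. Krt14, the basal layer keratin, stood at 405 FPKM in KO 64 and 556 FPKM in KO 84, against 139 FPKM in WT 52 and 84.04 FPKM in WT 57 (limma adjusted p = 0.114). Krt25 of the inner root sheath stood at 302 FPKM in KO 64 and 168 FPKM in KO 84, against 1258 FPKM in WT 52 and 1299 FPKM in WT 57 (limma adjusted p = 0.1). In HFSCs 4 of 13 that passed were at least 2-fold higher and 4 lower, against 5.92% and 4.6% of all genes. Krt27 and Krt28, which count among the 4 higher, passed only through cKO. The others include Krt17 (4127 FPKM in cKO and 1119 FPKM in Het) and Krt24 (46.1 FPKM in cKO and 365 FPKM in Het).

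Cell markers beside the TAC values differed as follows. In K15-CrePGR TACs the 9 listed inner root sheath genes summed to between 1348 and 1500.1 FPKM in KO, against 4377 to 4640 FPKM in WT, and the 9 companion layer and outer root sheath genes to between 2900 and 4580 FPKM in KO, against 1496 to 1527 FPKM in WT. The 3 listed isthmus genes summed to between 257 and 827 FPKM in KO, against 24.7 to 29.1 FPKM in WT, and the 9 bulge genes to between 541 and 651 FPKM in KO, against 142 to 188 FPKM in WT. All 3 isthmus genes and all 8 bulge genes that passed the filter lay above both WT libraries in both KO libraries, against 26.8% of all loci. The 7 hair matrix genes summed to between 522 and 576 FPKM in KO and 504 to 548 FPKM in WT, but went both ways. Of them 3 (Shh, Edar and Bmp4) lay above both WT libraries in both KO libraries and 2 (Lef1 and Msx2) below. Over all loci these shares were 26.8% and 27.5%. In Shh-CreER TACs the 9 inner root sheath genes summed to 2326 FPKM in cKO and 2026 FPKM in Het. The 7 matrix genes summed to 485 FPKM in cKO and 663 FPKM in Het, but went both ways here too. Of them 2 (Hoxc13 and Msx2) were at least 2-fold lower in cKO, against 2.77% of all genes. At least 2-fold higher was 1 (Edar, 52.5 FPKM in cKO and 14.1 FPKM in Het), against 2.67% of all genes. The 6 genes of dividing cells summed to 731 FPKM in cKO and 635 FPKM in Het. The 3 listed isthmus genes summed to 703 FPKM in cKO and 75.1 FPKM in Het. The 7 skeletal muscle genes summed to 31.3 FPKM in cKO and 154 FPKM in Het, with Myh2 at 0 in at least 1 library. Sebaceous gland genes summed to 330 FPKM in cKO and 144 FPKM in Het. All 7 of them that passed the filter, 1 only through cKO, were at least 2-fold higher, against 2.67% of all genes. The 7 melanocyte genes summed to 25.4 FPKM in cKO and 95.7 FPKM in Het, most of it Dct (15.8 FPKM and 82.9 FPKM). The part of these cell markers in the keratin values was not tested.

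Of 12 transcription factors of the shaft, 7 were at least 2-fold lower in Shh-CreER cKO TACs and 0 higher, against 2.77% and 2.67% of all genes. Hoxc13, which is known to bind and drive hair keratin promoters, stood at 14.9 FPKM in cKO and 152 FPKM in Het, Foxq1 at 5.62 FPKM in cKO and 48.5 FPKM in Het, Msx1 at 8.05 FPKM in cKO and 59.5 FPKM in Het and Prdm1 at 1.36 FPKM in cKO and 12.1 FPKM in Het. In K15-CrePGR TACs 5 of 12 lay below both WT libraries and 2 above, with 0 past the adjusted threshold in limma and 5 lower and 1 higher at an unadjusted p under 0.05. The shares over all loci were 27.5% below, 26.8% above, 7.08% lower and 10.3% higher. Ovol1 stood at 25.7 FPKM in KO 64 and 26.8 FPKM in KO 84, against 72.8 FPKM in WT 52 and 53.2 FPKM in WT 57 (limma adjusted p = 0.123). Msx2, both a BMP target and a shaft factor, stood at 65.5 FPKM in KO 64 and 35.3 FPKM in KO 84, against 129.5 FPKM in WT 52 and 90.3 FPKM in WT 57 (limma adjusted p = 0.251). Vdr, the vitamin D receptor, was higher in both KO libraries, at 63.0 FPKM in KO 64 and 63.2 FPKM in KO 84, against 26.5 FPKM in WT 52 and 29.3 FPKM in WT 57 (limma adjusted p = 0.0917). Prdm1 was above both WT libraries as well, at 7.21 FPKM in KO 64 and 2.13 FPKM in KO 84, against 1.27 FPKM in WT 52 and 1.79 FPKM in WT 57 (limma adjusted p = 0.388). Foxq1 overlapped, at 20.8 FPKM in KO 64 and 1.38 FPKM in KO 84, against 4.70 FPKM in WT 52 and 5.04 FPKM in WT 57 (limma adjusted p = 0.907). Hoxc13, named here, like Prdm1 and Foxq1, after its values were seen, stood at 89.9 FPKM in KO 64 and 45.0 FPKM in KO 84, against 144 FPKM in WT 52 and 83.6 FPKM in WT 57, so the groups overlapped (limma adjusted p = 0.422). In HFSCs 3 of the 12 were at least 2-fold lower in cKO and 1 higher, against 4.6% and 5.92% of all genes. The higher one was Hoxc13, at 28.7 FPKM in cKO and 9.95 FPKM in Het.

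Of 8 BMP target genes, 6 were at least 2-fold lower in Shh-CreER cKO TACs, 5 in cKO HFSCs and 5 lay below both WT libraries in both K15-CrePGR KO libraries, where 0 passed the adjusted threshold in limma and 4 were lower at an unadjusted p under 0.05. The shares over all genes were 2.77% in Shh-CreER TACs, 4.6% in HFSCs and, in K15-CrePGR TACs, 27.5% below both WT libraries and 7.08% lower at that p. Id1, an inhibitor of differentiation, stood at 49.2 FPKM in Shh-CreER cKO and 358 FPKM in Het TACs, and at 111 FPKM in cKO and 297 FPKM in Het HFSCs. In K15-CrePGR TACs Id3 stood at 184 FPKM in KO 64 and 112 FPKM in KO 84, against 573 FPKM in WT 52 and 315 FPKM in WT 57 (limma adjusted p = 0.206).

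Outside the lists, the pattern of the family was compared with 9931 genes by Pearson's r over the 8 libraries, each table centred on its own mean. The 8 libraries share 3 tables, so r is a description. The HFSC pair is part of it. There Krt31, Krt33a and Krt35 passed the filter only through cKO, and Krt33b, Krt34 and Krt36 did not pass. Nothing is therefore concluded from the ranking. The nearest were Gng5, a G protein subunit (r = 0.996), Tmem180 (0.995), Asb8 (0.994), Kcnh1, a potassium channel (0.990), Dpm2 (0.988), Krtap7-1, a keratin-associated protein (0.986), Them4 (0.986) and Epb4.1l1 (0.985). Krtap7-1 stood at 86.1 FPKM in cKO and 880.3 FPKM in Het Shh-CreER TACs. In K15-CrePGR TACs it stood at 95.3 FPKM in KO 64 and 12.1 FPKM in KO 84, against 373 FPKM in WT 52 and 328 FPKM in WT 57. In HFSCs it stood at 2.29 FPKM in cKO and 0 FPKM in Het, and so passed the filter only through cKO. Asb8 and Dpm2 had smaller differences, for example Dpm2 at 47.7 FPKM in cKO and 61.2 FPKM in Het Shh-CreER TACs. Among the members, Krt31 and Krt33a were nearest to each other (r = 0.995), and Krt32 and Krt34 farthest apart (r = 0.433).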

How the data were processed

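RNA sequencing of mouse hair follicle cells gave 8 libraries in 3 tables. A Zymed kit served for RNA extraction, per the labels. TopHat, Cufflinks and the mm9 build are named in the submitters' processing notes, without versions or annotation. The deposited values are FPKM, 1 column per library, with a separate normalization for each table by the authors. Left out were 8904 unnamed loci of the K15-CrePGR TAC data, which held between 78.5% and 79.1% of summed FPKM. Of repeated symbols the highest entry by mean served, and list genes with no entry under their symbol were not analysed here.

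The members, lists and rules were chosen with earlier results of these data known. Named genes were the 7 members, up to 4 genes a list (largest log2 difference, mean of 5 FPKM or more), 8 genes nearest to the family's pattern, and genes whose values a ratio or a marker check needs. For K15-CrePGR TACs, log2(FPKM + 1) of the 13565 loci averaging 1 FPKM or more was fitted with limma 3.58.1 in R 4.3.3 (moderated by empirical Bayes, trend on intensity, two-sided tests, Benjamini-Hochberg over all loci). The procedure was tested on simulated data. No label says that samples come from separate animals, and p-values then reflect only how far these samples differ, which may be technical. Xist stood at 3.26 FPKM in WT 52 and 175 FPKM in WT 57, so these 2 libraries differ in sex and are not repeats of 1 animal. The other tables, with 1 library per group, have no test, and genes past 2-fold on FPKM + 1 were counted, a scale that understates the change of low genes. Reads per gene are estimates from steps among values under 0.3 FPKM. Alternatives were other pseudocounts, filters, scalings and entries for repeated symbols, limma without the trend, and each library left out. Promoters are from RefSeq, GRCm38.p6, and other tools were Biopython 1.88, scipy 1.17.1, matplotlib 3.10.9, pandas 2.3.3 and numpy 2.4.6 in Python 3.11.15.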

Additional observations from a re-analysis of the deposited data

Results flagged for a closer look

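The difference between deleted and control libraries had opposite signs in HFSCs (K15-CrePGR, day 68) and in Shh-CreER TACs (day 68) for 6 of the 7 keratins. The log2(FPKM + 1) difference, cKO minus Het, was 2.44 in HFSCs and -3.52 in TACs for Krt35, 1.54 and -2.59 for Krt33a, 1.47 and -1.81 for Krt33b, 1.21 and -2.99 for Krt31, 0.86 and -0.99 for Krt34, and 0.36 and -3.32 for Krt36. The difference between the cell types was not tested, since each group is 1 library and the tables were normalized separately. On the HFSC side Krt35, Krt33a and Krt31 passed a mean of 1 FPKM only through the cKO library and Krt33b, Krt34 and Krt36 did not pass it, so nothing is read from these signs. In the Het HFSC library Krt33b and Krt36 rest on about 2.62 and 1.02 reads.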

How the results depend on the processing

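No member passed an adjusted p of 0.05 in K15-CrePGR TACs under any of the 12 alternatives tried with limma, where adjusted p lay between 0.0687 and 0.985. The only sign to turn there was that of Krt34, which lay between -0.21 and 0.38 with 1 library left out (0.38 without KO 84; without KO 64 it did not pass the filter). The number of loci called, 9 as reported, was 21 with a pseudocount of 0.1 FPKM, 15 with a filter of 5 FPKM and 5 with no filter, and between 0 and 23 when 1 library was left out. Without WT 52 or WT 57 it was 0 in limma, with 928 and 967 loci and 3 of the 7 members at an unadjusted p under 0.05. The lone sample of an arm was then assumed to vary like the other group. The median log2 difference of the members lay between -3.05 (without KO 64) and -1.62 (without KO 84). The members below WT in the K15-CrePGR TAC alternatives were 7 with quantile normalization and without KO 64, and 6 in the others. With 1 library left out, fewer values have to separate, so groups are more often apart. The share over all loci was not computed for these settings, so nothing is read from the counts. In HFSCs the median over all 7 members, of which 3 did not pass the filter of 1 FPKM, was 1.21, 2.76 with a pseudocount of 0.1 and 0.41 with 5. A filter of 5 FPKM leaves Krt32 alone, another set of genes, whose value of -0.43 is then both the median and the sum. Genes past 2-fold were 580 (pseudocount 5) and 854 (filter of 5 FPKM) in place of 1284 in HFSCs, and 292 and 427 in place of 668 in Shh-CreER TACs. Median scaling, quantile normalization and summing repeated symbols turned no direction. No paired analysis was possible because the K15-CrePGR TAC groups share no replicate numbers and the other groups are 1 library each. Depth limits the HFSC Het values, where 1 read is worth between 0.0106 and 0.0115 FPKM.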
